A study of Mus musculus with 2 samples.

Results

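High-mitochondrial-share barcodes (high-mt barcodes below) are the cell barcodes of the control library in which 10% or more of the unique molecular identifiers (UMIs, each a captured RNA molecule) fell on genes of the mitochondrial genome, whose symbols start with mt-. They were 209 of 3336 control barcodes, or 6.26% (exact 95% interval 5.47 to 7.14%, which like every interval here covers counting error only). The other 3127 control barcodes are the comparison throughout. The barcodes were selected on a measured value, so the mt- genes themselves are described without a test. The group is a range cut from a per-barcode value and not a cell type.

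The study profiled CD8+ T cells from the spleen and lymph nodes of OT-I mice aged 8 to 12 weeks, whose transgenic T cell receptor recognises the ovalbumin peptide SIINFEKL. Splenocytes were activated with that peptide for 48 h with interleukin-2 at 100 U/ml, moved to medium with 11 mM glucose and interleukin-2, and exposed for 20 h to transient glucose restriction (TGR, 1 mM glucose) or control conditions (11 mM glucose). The descriptions of the samples name 3 days of growth before the exposure, which differs from the 48 h of the protocol. Droplet libraries (10x Chromium, v2 chemistry) were made, 1 per condition, so no difference given here has a replicate, no p-value is given, and barcodes of 1 library are not replicates.

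Mitochondria carry a small genome that encodes subunits of the respiratory chain, and their transcripts stay inside the organelle. Most other messenger RNAs are read by ribosomes in the cytosol. Messages for secreted, membrane and endoplasmic reticulum (ER) proteins are instead read on the ER surface, where a hydrophobic stretch of the new protein brings the ribosome, and some long non-coding RNAs such as Malat1 and Xist stay in the nucleus. A share of UMIs in a droplet is relative to the total, so fewer molecules of one kind and more of another cannot be told apart from shares alone, and UMIs per barcode are given beside them.

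The control library held 15103830 UMIs in all and the TGR library 19702050. The high-mt barcodes held 373702 UMIs, of which 308799 were outside mt- genes, against 14302275 UMIs outside mt- genes in the other control barcodes. All 9 CD8 T cell markers present in the files, of 12 looked for, were detected in the high-mt barcodes, as were mt-Co1, Malat1, Gzmb and Ptprc. Detected means a UMI in any of these barcodes, and by that measure so were all 7 B cell markers in the files. All 7 natural killer (NK) and innate-like markers, 3 of 4 CD4 T cell markers and 2 of 5 stroma markers were detected too. The defining markers of neutrophils (5), red cells (6) and platelets (4) were at 0 in the high-mt barcodes, and 9 of 11 macrophage and dendritic cell markers were at 0 too. The 7 B cell markers in the files summed to 233 counts per 1000000 non-mt- UMIs (CPM) in high-mt barcodes and 47.5 CPM in the other control barcodes, and the 11 macrophage and dendritic markers to 547 CPM in high-mt barcodes and 119.6 CPM in the others (nearly all of it Cst3, with 168 UMIs in high-mt barcodes). The 9 CD8 T cell markers summed to 20081 CPM in high-mt barcodes and 5365 CPM in the others. The NK and innate-like markers summed to 382 CPM in high-mt barcodes and 78.8 CPM in the others. For CD4 T cell markers the sums were 13.0 and 4.54 CPM, and for stroma markers 110 and 27.8 CPM, in the same order. The part of cells other than CD8 T cells in the results was not tested. Barcode sequences shared by both libraries numbered 11, and 2 of them were high-mt barcodes, which had 15.4% and 15.5% mt- UMIs in the control library while the same barcode sequences had 2.42% and 2.57% in the TGR library.

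Among the high-mt barcodes the mt- share ran from 10.1% through a median of 17.3% to 30.8%. In the other control barcodes its median was 2.74% and its highest value 9.88%. The barcodes did not thin out evenly across the limit: 13 control barcodes lay from 8 to under 9%, 6 from 9 to under 10%, 6 from 10 to under 11% and 6 from 11 to under 12%, then 36 from 12 to under 15% and 117 from 15 to under 20%. Above that, 36 lay from 20 to under 25% and 8 at 25% or more. Most of the high-mt barcodes therefore formed a second heap around 17%, and 12 of the 209 lay under 12%.

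**Figure D1:**
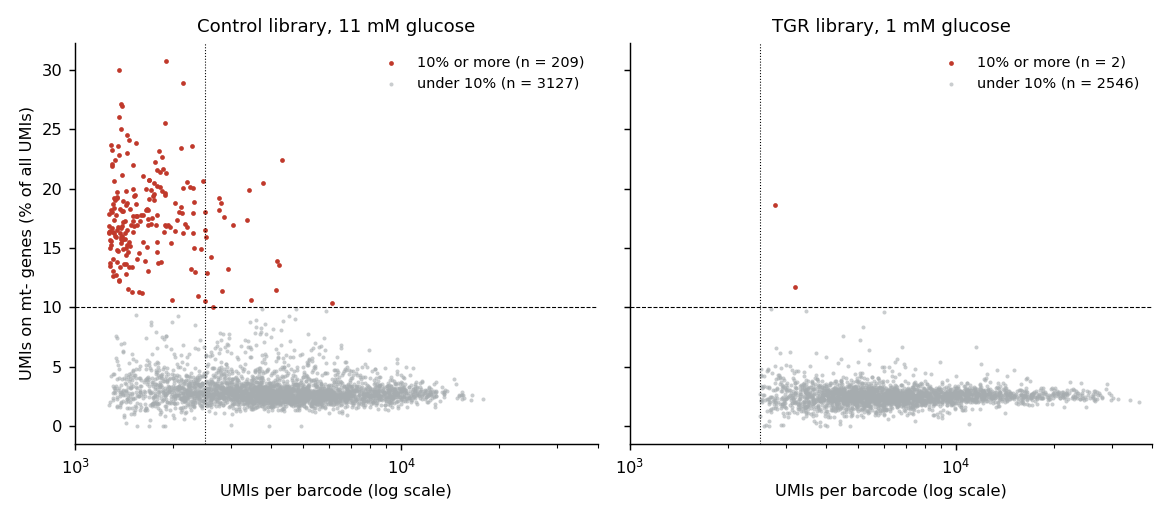
Share of UMIs on mt- genes (vertical axis, % of all UMIs) against UMIs per barcode (horizontal axis, log scale) for each barcode of the control library (left) and the TGR library (right). The dashed line is the 10% limit and the dotted line the lowest UMI total among deposited TGR barcodes (2505); most of the 209 high-mt barcodes (red) lie left of it, where the TGR panel holds no barcode.

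The barcodes nearest the limit were unlike the second heap. The 6 just inside it (10.1 to 11.0% mt- UMIs) had between 24.1 and 38.0% of their non-mt- UMIs on cytosolic ribosomal protein genes. The 6 just outside (9.28 to 9.88%) had between 22.7 and 43.4%. Both ranges reach well above the median of all high-mt barcodes, 17.8%, so barcodes on the 2 sides of the limit overlap.

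The 13 mt- genes in the files are what the rule used, so their levels are a description, and their mix was nearly the same in both groups. mt-Atp6, a subunit of ATP synthase, had 18, 59 and 178 UMIs per barcode (lowest, median, highest) in high-mt barcodes and 0, 23 and 115 in the other control barcodes. It made up 20.4% of mt- UMIs in both groups. mt-Co1, the catalytic subunit of cytochrome oxidase, had 12, 43 and 174 UMIs per barcode in high-mt barcodes and 0, 19 and 116 in the other control barcodes. Its part of the mt- UMIs was 15.3% (15.04 to 15.60%) in high-mt barcodes and 17.4% (17.3 to 17.6%) in the others, while that of mt-Nd1, a complex I subunit, was 14.2% (13.9 to 14.4%) in high-mt barcodes and 12.2% (12.1 to 12.3%) in the others. These were the largest shifts in percentage points. mt-Nd6, the single protein gene on the other mitochondrial strand, was rare in both groups, with 19 UMIs in high-mt barcodes and 195 in the other control barcodes.

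Since the rule sets a share, a barcode of a given size had to hold a given number of mt- UMIs to be chosen, and these numbers too are a description. High-mt barcodes had 165, 285 and 964 mt- UMIs (lowest, median, highest) against 0, 112 and 573 in the other control barcodes. Outside mt- genes the order was turned round: 958, 1290 and 5489 UMIs in high-mt barcodes against 1232, 3928 and 17429 in the other control barcodes, with much overlap. Total UMIs were 1268, 1545 and 6121 in high-mt barcodes and 1274, 4030 and 17832 in the others. To set barcodes of like size side by side, each high-mt barcode was given the other control barcode nearest in total UMIs. All 209 found a partner, with a median of 1545 UMIs in both groups and 50 mt- UMIs in the partners. Outside mt- genes the groups were not of equal size: the partners had a median of 1511 UMIs, against 1290 in high-mt barcodes.

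High-mt barcodes held a wider range of genes for their size. The median number of genes with a UMI, mt- genes left out, was 837 in high-mt barcodes, 710 in their partners and 1375 in all other control barcodes. When each barcode was thinned to 500 non-mt- UMIs, high-mt barcodes had 325, 395 and 433 genes (lowest, median, highest), partners had 248, 310 and 380, and all other control barcodes had 242, 313 and 398. At equal depth, therefore, the median of the high-mt barcodes stood close to the top of the range of the others. The 500 UMIs include those on cytosolic ribosomal protein genes, whose median share was 17.8% in high-mt barcodes and 40.8% in the others. The part of that share in the gene counts was not tested.

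Cytosolic ribosomal protein genes carried much less of the RNA in high-mt barcodes. Their share of non-mt- UMIs was 12.6, 17.8 and 38.0% (lowest, median, highest) in high-mt barcodes, 25.2, 40.7 and 56.0% in the partners and 22.7, 40.8 and 57.0% in all other control barcodes. In 174 of the 209 high-mt barcodes (83.3%, 77.5 to 88.0%) the share lay under that of every other control barcode. Counted as molecules, the median was 242 ribosomal protein UMIs in high-mt barcodes, 658 in the partners and 1580 in all other control barcodes.

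Messages whose proteins start with a hydrophobic stretch carried more. Each scored gene was classed from the longest coding sequence of its GENCODE M21 transcripts: a hydrophobic start means a window of 19 residues with a mean Kyte-Doolittle hydropathy of at least 1.6 that begins within the first 25 residues, the usual look of a signal peptide or a first membrane segment. This classing was chosen after the values of single genes were seen. The first 90 coding bases of 5 of the genes with the highest or lowest ratios show the difference, with the codons of all windows at or above that limit in capitals.
Hspa5: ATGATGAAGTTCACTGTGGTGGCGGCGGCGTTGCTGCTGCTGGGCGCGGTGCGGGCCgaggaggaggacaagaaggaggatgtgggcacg
Rpn1: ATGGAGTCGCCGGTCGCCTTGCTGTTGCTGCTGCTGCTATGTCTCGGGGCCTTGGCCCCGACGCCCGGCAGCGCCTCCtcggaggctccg
Pdia4: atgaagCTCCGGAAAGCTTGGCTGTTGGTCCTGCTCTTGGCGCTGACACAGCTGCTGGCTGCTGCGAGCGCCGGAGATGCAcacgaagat
Tmsb10: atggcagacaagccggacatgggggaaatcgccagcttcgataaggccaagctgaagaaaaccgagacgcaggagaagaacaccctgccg
Rpl35: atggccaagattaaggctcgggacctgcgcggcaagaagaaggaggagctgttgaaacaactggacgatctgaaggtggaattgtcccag
The genes lie, on GRCm38, at chr2:34771970-34777547 on the + strand (Hspa5), chr6:88084482-88105304 on the + strand (Rpn1), chr6:47796141-47813430 on the - strand (Pdia4), chr6:72957347-72958748 on the - strand (Tmsb10) and chr2:39001580-39005624 on the - strand (Rpl35). The capitals cover 19 codons in Hspa5, 26 in Rpn1 and 25 in Pdia4, and there are none in Tmsb10 or Rpl35. The rule misses some signal peptides: the highest window of granzyme B, a secreted protein, is 1.26, so Gzmb counts among genes with no such stretch.

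Genes with a hydrophobic start made up 5.20, 13.8 and 18.8% of non-mt- UMIs (lowest, median, highest) in high-mt barcodes, 1.74, 4.23 and 8.04% in the partners and 1.74, 4.08 and 11.6% in all other control barcodes. In 167 of the 209 high-mt barcodes (79.9%, 73.8 to 85.1%) this share lay above that of every other control barcode. The ribosomal and hydrophobic-start shares together set most high-mt barcodes apart from the partners.

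**Figure D2:**
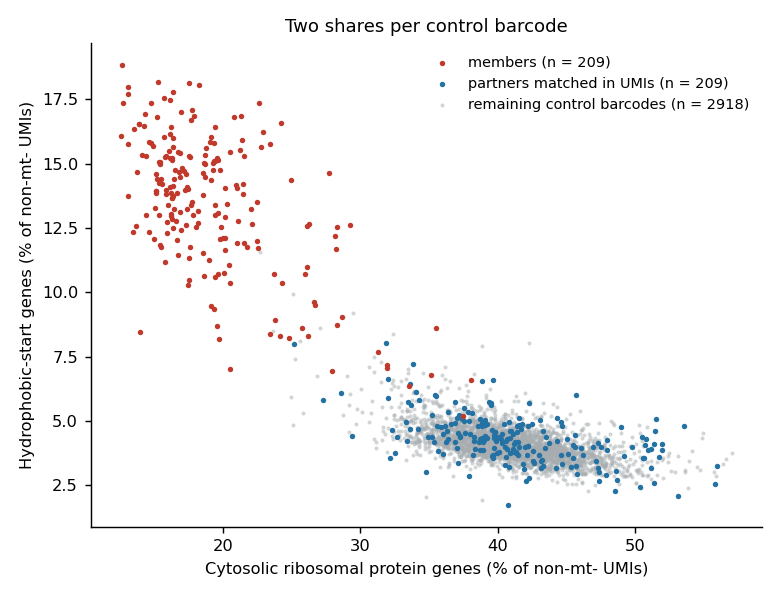
Each point is a control barcode, placed by the share of its non-mt- UMIs on cytosolic ribosomal protein genes (horizontal axis, %) and on genes with a hydrophobic start (vertical axis, %). High-mt barcodes (red, n = 209) lie mostly at the upper left, with medians of 17.8% and 13.8%, and their partners matched in UMIs (blue, n = 209) lie among the remaining control barcodes (grey).

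In molecules per barcode the groups of genes came apart clearly. The median barcode had 181 hydrophobic-start UMIs in the high-mt group, 68 in the partners and 161 in all other control barcodes, so a high-mt barcode held about as many of these molecules as a barcode with far more UMIs. Genes with a hydrophobic stretch only later in the protein had a median of 260 UMIs in high-mt barcodes, 152 in the partners and 383 in the others. Genes with no stretch, ribosomal proteins left out, had 587 in high-mt barcodes, 684 in the partners and 1802 in the others. Their share of non-mt- UMIs was 44.9% in high-mt barcodes, 45.7% in the partners and 45.5% in the others.

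**Figure D3:**
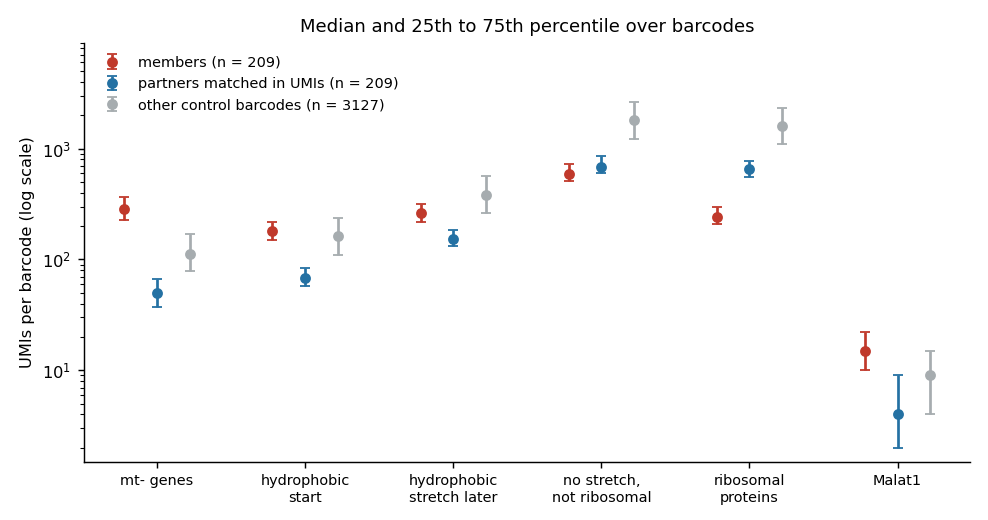
UMIs per barcode (vertical axis, log scale) on 6 kinds of gene, as the median (point) and the 25th to 75th percentile over barcodes (bars), for high-mt barcodes (red), partners matched in UMIs (blue) and all other control barcodes (grey). The high-mt barcodes hold the most mt- UMIs (median 285) and the fewest ribosomal protein UMIs (242), and for hydrophobic-start genes (181) they stand beside all other control barcodes (161).

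For single genes, UMIs were summed over the barcodes of each group and scaled to CPM. Of 3598 genes with at least 50 CPM in either group, 1553 (43.2%) were at least 2-fold higher in high-mt barcodes with an interval that excluded a ratio of 1, and 255 (7.09%) were at least 2-fold lower. The median log2 ratio of all scored genes was 0.75 (0.22 with ribosomal protein genes also left out of the total), and single ratios are to be read against that value. With the partners as the comparison, 1504 of 3630 scored genes (41.4%) were higher and 238 (6.56%) lower. A gene under 50 CPM in the other control barcodes could be scored only by being higher in high-mt barcodes, which tilts these counts and the median. Of the 2169 genes at 50 CPM or more in the other control barcodes, a limit added after the values were seen, 436 (20.1%) were higher and 255 (11.8%) lower, and their median log2 ratio was -0.01.

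The split of calls hangs on the scaling. Higher calls were 85.9% of all calls in CPM of non-mt- UMIs, 73.4% in CPM of all UMIs, 64.0% with ribosomal protein genes also left out of the total and 33.9% with edgeR's TMM factors. These scalings moved the median of all genes by -0.31, -0.53 and -1.22 on the log2 scale. Each of these shifts includes a change in which genes are scored (3230, 4490 and 3436 genes, against 3598). For a single gene, TMM factors lowered the log2 ratio by nearly the same amount throughout (from -0.88 to -0.87 over the 3598 genes), so a positive log2 ratio below about 0.87 turns negative with them.

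The 12 genes with the highest ratios at a level of 100 CPM or more in one of the groups belong to the ER, the membrane or the lysosome, with 1 exception. Hspa5, the ER chaperone BiP, had 878 CPM in high-mt barcodes and 101 CPM in the other control barcodes, an 8.65-fold ratio (7.57 to 9.85). Its mean was 1.30 UMIs per barcode (1.15 to 1.46) in the high-mt group, 0.120 (0.0774 to 0.177) in the partners and 0.464 (0.440 to 0.489) in all other control barcodes. Stt3a and Rpn1, subunits of the complex that adds sugar chains to new proteins, were 8.82-fold (7.10 to 10.9) and 7.98-fold (6.79 to 9.35) higher. Pdia4, an ER protein disulfide isomerase, was 8.42-fold higher, and Emc1, of the ER membrane complex that inserts proteins into the membrane, 9.01-fold. Il12rb1, a subunit of the interleukin-12 receptor, stood first with 33 UMIs in high-mt barcodes and 152 in the others. The rest were Man2b1 (a lysosomal mannosidase), Atp6ap2 (an accessory subunit of the vacuolar proton pump), Mfsd1, Slc39a6 (a zinc transporter), Sptlc2 (of the enzyme that starts sphingolipid synthesis in the ER) and Ube4a, a ubiquitin ligase that is not a membrane protein. All but Hspa5 and Rpn1 were under 50 CPM in the other control barcodes.

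The 12 lowest have transcripts of 433 to 2442 bases, all shorter than the median of all scored genes, 2604 bases. The median of genes at 50 CPM or more in the other control barcodes, 1994 bases, lies inside that range. Tmsb10, thymosin beta 10, an actin-binding peptide, had 0, 1 and 27 UMIs per barcode (lowest, median, highest) in high-mt barcodes, 1, 8 and 26 in the partners and 0, 19 and 110 in all other control barcodes. It had 1519 CPM in high-mt barcodes and 5014 CPM in the others, a 3.30-fold lower level (3.01 to 3.62). Rpl35, a large-subunit ribosomal protein, had 563 CPM in high-mt barcodes and 1707 CPM in the others, and Sepw1, a selenoprotein, 194 CPM in high-mt barcodes and 681 CPM in the others. Mrpl30 and Mrpl34 encode proteins of the mitochondrial ribosome, and their levels were 117 and 58.3 CPM in high-mt barcodes, against 345 and 179 CPM in the other control barcodes. The remaining 7 were Prelid2, S100a13, Smim11, Nol7, Dapl1, Bola3 and Ubl4a, with log2 ratios from -1.87 to -1.53. All 12 lay from -2.24 to -1.30 against the partners.

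The gene lists below are read against the background shares at 1.5-fold: 1883 of the 3598 scored genes (52.3%) were higher and 551 (15.3%) lower. At 50 CPM or more in the other control barcodes (the base level below), 627 of 2169 (28.9%) were higher and 551 (25.4%) lower. Of 32 lists, 11 had a median log2 ratio above the 0.75 of all scored genes, and 18 had one above the -0.01 of the genes at the base level. Where list members were scored through high-mt barcodes alone, so that they could only be higher, the count at the base level is given too. A list's own median is given each time, and the counts describe the list and are no test of it.

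**Figure D4:**
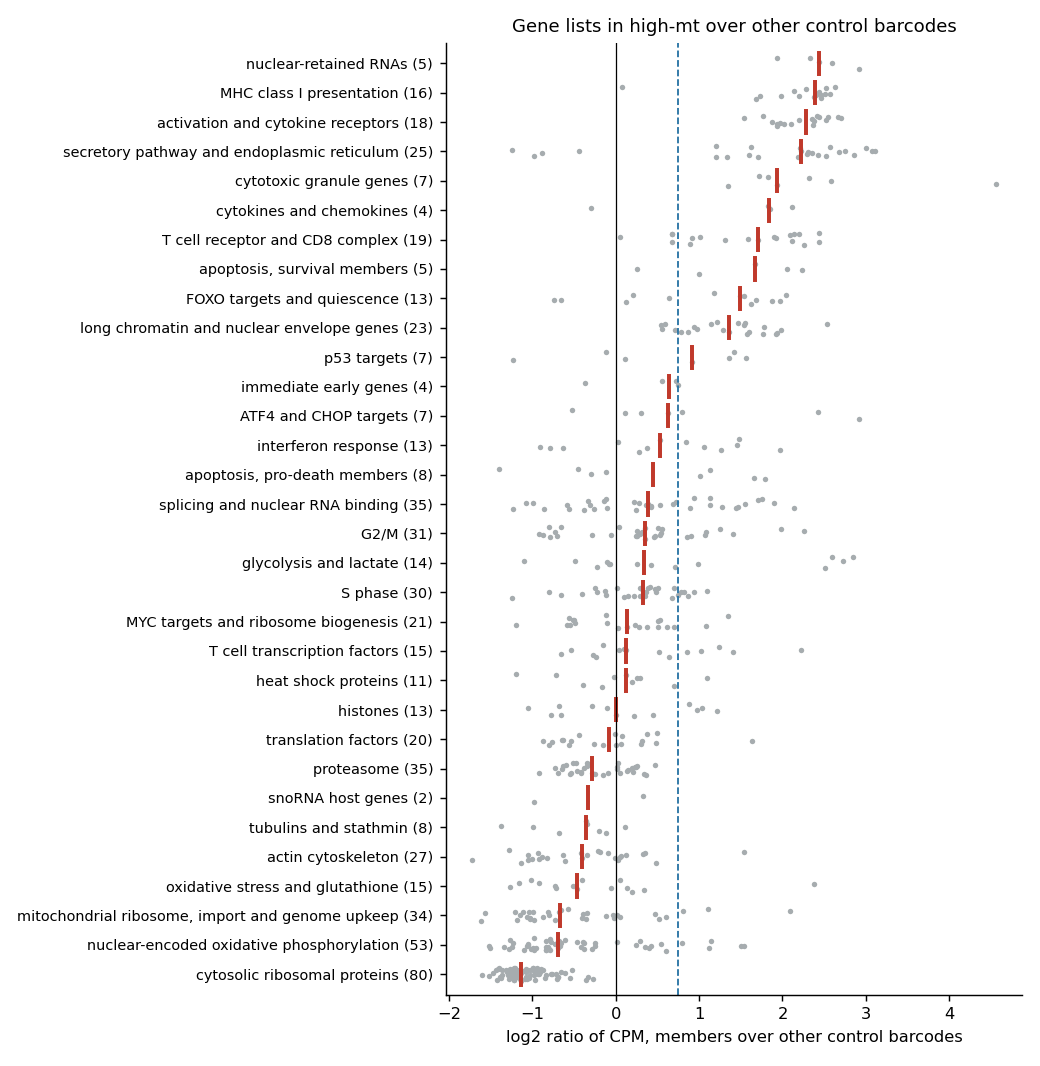
Log2 ratio of CPM, high-mt barcodes over other control barcodes (horizontal axis), of each scored gene (grey points, spread vertically at random for legibility) in 32 lists, with the number of scored genes in brackets. The red bar is the list's median and the dashed line the median of all scored genes (0.75); nuclear-retained RNAs (2.44) stand at the top and cytosolic ribosomal proteins (-1.13) at the bottom.

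Of 10 nuclear-retained RNAs 5 were scored, and these 5 were higher in high-mt barcodes, with a median log2 ratio of 2.44. Neat1 and Mir17hg were scored through high-mt barcodes alone, and the 3 genes at the base level were higher (median 2.44). Malat1, an abundant RNA of nuclear speckles, had 1, 15 and 52 UMIs per barcode (lowest, median, highest) in high-mt barcodes, 0, 4 and 32 in the partners and 0, 9 and 61 in all other control barcodes. Summed, this was 11489.7 CPM in high-mt barcodes and 2285 CPM in the others, a 5.03-fold ratio (4.86 to 5.21). Xist, which coats the inactive X chromosome, had 1, 8 and 27 UMIs per barcode in high-mt barcodes, 0, 2 and 7 in the partners and 0, 4 and 24 in the others. Kcnq1ot1, an imprinted antisense RNA, was 6.02-fold higher and Mir17hg, host of a microRNA cluster, 7.57-fold. The groups overlapped for Malat1 and Xist, but their medians in high-mt barcodes exceeded those of all other control barcodes in molecules as well as in share.

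The secretory pathway and ER list had a median of 2.23: of its 25 genes, 21 were higher and 3 lower, and at the base level 18 of 22 were higher and 3 lower (median 2.25). Hsp90b1, the ER member of the HSP90 chaperones, had 1881 CPM in high-mt barcodes and 279 CPM in the others. Sec61a1, the pore of the channel through which new proteins enter the ER, was 4.91-fold higher (4.10 to 5.86). The 3 lower genes were its small partners Sec61b (2.37-fold lower) and Sec61g (1.84-fold) and Srp9 (1.98-fold), a protein of the particle that brings ribosomes to the ER. Srp14, the partner of Srp9, had a log2 ratio of -0.44. Summed over the list, the median barcode had 20 UMIs in the high-mt group, 7 in the partners and 20 in all other control barcodes.

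Of 16 genes of antigen presentation by MHC class I, 15 were higher and none lower, with a median of 2.39. At the base level 9 of 10 were higher (median 2.42). H2-K1, a class I heavy chain, had 0, 6 and 20 UMIs per barcode (lowest, median, highest) in high-mt barcodes, 0, 1 and 7 in the partners and 0, 3 and 24 in the others. B2m, the light chain common to class I molecules, had a median of 7 UMIs in high-mt barcodes, 3 in the partners and 7 in all other control barcodes. The peptide transporter gene Tap1 was 5.21-fold higher and the chaperones Calr and Canx 5.43-fold and 5.76-fold. H2-T22, a non-classical heavy chain, had 185 CPM in high-mt barcodes and 175 CPM in the others. Reads of the H2 genes can be split among near-identical copies, so their single values are uncertain.

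Surface receptors of T cells were higher as well. Of 20 activation and cytokine receptor genes 18 were scored, and these 18 were higher, with a median of 2.28. Of them 9, Cd44 among them, were scored through high-mt barcodes alone, and the 9 at the base level were higher. Il2rb and Il2ra, chains of the interleukin-2 receptor, had 836 and 836 CPM in high-mt barcodes and 161 and 195 CPM in the others. Cd44, an adhesion receptor raised on activated cells, was 6.52-fold higher (4.75 to 8.84), and Tfrc, the transferrin receptor of growing cells, 5.82-fold. Ccr7, a chemokine receptor that guides naive T cells to lymph nodes, was higher too, with a log2 ratio of 1.94.

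Of 19 genes of the T cell receptor and CD8 complex, 18 were higher and none lower, with a median of 1.71. At the base level 17 of 18 were higher (median 1.65). Ptprc, the phosphatase CD45, had 0, 2 and 12 UMIs per barcode (lowest, median, highest) in high-mt barcodes, 0, 0 and 3 in the partners and 0, 1 and 16 in the others. Thy1 had a median of 5 UMIs in high-mt barcodes, 1 in the partners and 3 in the others. Cd8a was 4.34-fold higher (3.96 to 4.76) and Cd3e 2.48-fold. The kinases Lck and Zap70, which work on the inner face of the membrane, had log2 ratios of 0.68 and 0.91 (-0.20 and 0.04 with TMM factors), and Coro1a, an actin-binding protein, 0.06.

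Of 17 genes of cytotoxic granules 7 were scored, and these 7 were higher, with a median of 1.93. Gzmc was scored through high-mt barcodes alone, and the 6 at the base level were higher (median 1.88). Gzmb, the granzyme that triggers death of target cells, had 0, 5 and 40 UMIs per barcode (lowest, median, highest) in high-mt barcodes, 0, 1 and 14 in the partners and 0, 2 and 40 in all other control barcodes. It had 4948 CPM in high-mt barcodes and 827 CPM in the others, a 5.98-fold ratio (5.67 to 6.31). Gzmc, a related granzyme, had 25 UMIs in the 209 high-mt barcodes and 48 in the 3127 others, or 81.0 CPM in high-mt barcodes and 3.36 CPM in the others. These 25 UMIs came from 0.957% of high-mt barcodes, so the ratio of Gzmc rests on very few barcodes. Among the 4 scored cytokine genes, Lta and Ltb, of the lymphotoxin family, were 4.33-fold and 3.60-fold higher, Tnfsf8, scored through high-mt barcodes alone, had a log2 ratio of 1.82, and Ccl5 had 51.8 CPM in high-mt barcodes and 63.4 CPM in the others.

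A list of genes with long messages, mostly for chromatin and nuclear envelope proteins, was higher as well. Of 23 scored, 21 were higher and none lower, with a median of 1.36, and at the base level 15 of 17 were higher (median 1.54). The list also holds Ahnak, Akap9, Birc6 and Macf1, which are not chromatin proteins. Macf1, a linker of microtubules and actin, was 5.81-fold higher and Kmt2a, a histone methyltransferase, 3.80-fold. Of 35 splicing and nuclear RNA-binding genes, 14 were higher and 5 lower (median 0.38, or -0.49 with TMM factors), and at the base level 13 of 34 were higher and 5 lower. The higher ones included Son and Rbm25, which help in splicing (2.76-fold and 2.92-fold), and all 5 lower ones were Sm proteins of the spliceosome core, among them Snrpe (2.11-fold lower) and Snrpd2 (2.35-fold lower).

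Cytosolic ribosomal proteins were lower almost without exception. Of 80 scored genes, 75 were at least 1.5-fold lower and none higher, with a median of -1.13. Rpl32 had 0, 5 and 34 UMIs per barcode (lowest, median, highest) in high-mt barcodes, 5, 18 and 55 in the partners and 5, 43 and 232 in all other control barcodes. Its level was 2.64-fold lower. Ribosomal protein genes have many processed pseudogenes, so reads can be shared with copies. Translation factors, which work with the ribosome in the cytosol, had 1 higher and 5 lower of 20 and a median of -0.09.

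The nuclear-encoded subunits of oxidative phosphorylation, which work beside the products of the mt- genes, did not go with them. The median of the 53 genes was -0.69, and 6 were higher and 32 lower. Ndufv3 (complex I) was 2.88-fold lower (2.11 to 4.04) and Atp5e (ATP synthase) 2.53-fold lower (2.10 to 3.08). The 6 higher genes were Ndufc2, Ndufa13, Ndufa4, Ndufa1, Ndufb11 and Cox6a1. Ndufc2 had 809.6 CPM in high-mt barcodes and 278 CPM in the others, and Ndufa13 had 1522 CPM in high-mt barcodes and 537 CPM in the others. Ndufa4 and Cox6a1 had log2 ratios of 1.15 and 1.12 (0.27 and 0.25 with TMM factors), while those of Ndufa1 (0.80) and Ndufb11 (0.60) turn negative with TMM factors. Of 34 scored genes of the mitochondrial ribosome, protein import and genome upkeep, 3 were higher (Polg, Phb and Timm50) and 18 lower, with a median of -0.67. Polg and Phb were scored through high-mt barcodes alone, and the log2 ratio of Timm50 (0.81) turns negative with TMM factors. At the base level 1 of 31 genes of this list was higher and 18 were lower (median -0.73).

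Cytoskeletal genes were low. The 27 scored actin genes had a median of -0.40, and 11 of them were lower and 1 higher. Tmsb4x, thymosin beta 4, had 0, 8 and 62 UMIs per barcode (lowest, median, highest) in high-mt barcodes, 1, 28 and 128 in the partners and 1, 66 and 240 in the others. Actb, beta-actin, had a median of 2 UMIs in high-mt barcodes, 10 in the partners and 16 in the others. The single higher gene was Lcp1, an actin bundler of white cells, at 2.91-fold. Of 8 scored tubulin and stathmin genes 3 were lower (Stmn1, Tbca and Tuba1b) and none higher, with a median of -0.35. Outside the cytoskeleton, of 35 proteasome genes, all at the base level, 6 were lower and none higher (median -0.28). That is a smaller part lower than the 25.4% of all genes at the base level, and a smaller part higher than the 28.9% there.

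The genes of glycolysis had a median of 0.34 (-0.62 with TMM factors), or -0.08 at the base level, where 2 of 10 were higher and 1 lower. The glucose transporters Slc2a1 and Slc2a3 were 6.05-fold and 6.62-fold higher and the lactate transporters Slc16a1 and Slc16a3 5.71-fold and 7.21-fold. Of these membrane carriers, Slc16a3 alone was at the base level. Of the 10 scored cytosolic enzymes, Pfkp and Hk1 were above 1.5-fold (log2 ratios 0.98 and 0.72, or 0.11 and -0.16 with TMM factors), Gapdh was 2.14-fold lower (1.90 to 2.42), and Ldha had 1584 CPM in high-mt barcodes and 1674 CPM in the others.

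The 11 scored heat shock genes had a median of 0.12 (-0.75 with TMM factors): 2 were higher and 1 lower. Hspa9, the HSP70 chaperone of mitochondria, and Hspa8, that of the cytosol, had log2 ratios of 1.09 and 0.12 (0.22 and -0.75 with TMM factors). The mitochondrial chaperonin Hspd1 had 0.70 (-0.18 with TMM factors) and its small partner Hspe1, also of mitochondria, -1.20. The cytosolic HSP90 protein Hsp90ab1 had a log2 ratio of -0.17, against 2.75 for its ER relative Hsp90b1, which is on the secretory list. Of 15 scored genes against oxidative stress, Prdx4, the peroxiredoxin of the ER, was the single higher one (5.22-fold, 4.22 to 6.42), whereas the cytosolic Prdx1 had a log2 ratio of 0.05 and Prdx2 was 2.23-fold lower. At the base level 1 of 13 of these genes was higher and 6 were lower (median -0.52).

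Lists often read in damaged or dying cells gave mixed counts. Of 8 scored pro-death genes of apoptosis, 4 were higher (Aifm1, Htra2, Diablo and Casp8) and 1 lower (Endog), with a median of 0.45. These 4 higher genes were scored through high-mt barcodes alone, and at the base level none of 4 was higher and 1 was lower (median -0.38). Of 5 survival genes, 4 were higher, with a median of 1.67, and at the base level 2 of 3 were higher. Bcl2 had 2529 CPM in high-mt barcodes and 608 CPM in the others, and Tmbim6, which protects cells from ER stress, was 4.70-fold higher, while Mcl1 had 68.0 CPM in high-mt barcodes and 56.8 CPM in the others. Of 7 scored p53 targets 4 were higher and 1 lower (median 0.91), but at the base level none of 3 was higher and 1 was lower. Of 4 immediate early genes 2 were higher and none lower (median 0.64), and at the base level 1 of 3 was higher. Of 7 targets of the stress factors ATF4 and CHOP 4 were higher, with a median of 0.62, and the leading 2, Slc7a5 (7.59-fold) and Slc3a2 (5.38-fold), form an amino acid transporter in the membrane. All of these medians except that of the survival genes turn negative with TMM factors.

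Cell cycle genes were mixed. The 31 scored G2/M genes had a median of 0.35, and 8 were higher and 7 lower (5 and 7 of 25 at the base level). Against the partners 14 of 31 were higher and 3 lower (median 0.51, below the 0.75 of all genes there). Mki67, a large protein that coats mitotic chromosomes, had 0, 1 and 10 UMIs per barcode (lowest, median, highest) in high-mt barcodes, 0, 0 and 5 in the partners and 0, 1 and 9 in the others, and was 4.80-fold higher in CPM. Hmgb2 (1.84-fold lower), Cks1b (1.90-fold lower) and Birc5 (1.72-fold lower), all small proteins, were among the lower ones. Of 30 scored S phase genes 8 were higher and 2 lower (median 0.33), or 5 and 2 of 26 at the base level. Against the partners 10 of 30 were higher and 2 lower (median 0.52). Of 13 histone genes 4 were higher, 3 of them H1 linkers and each scored through high-mt barcodes alone, and 4 lower, among them H2afz with 1489.6 CPM in high-mt barcodes and 2556 CPM in the others. At the base level none of 9 histone genes was higher and 4 were lower (median -0.28). Against the partners 1 of 13 was higher and 3 were lower (median 0.36). Against all other control barcodes, the medians of these lists (G2/M, histones, S phase) turn negative with TMM factors. They also do so with ribosomal protein genes left out of the total.

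Other regulatory lists gave mixed counts. Of 15 scored T cell transcription factors 6 were higher and none lower, with a median of 0.12 (4 of 12 higher at the base level), among them Ikzf1 (2.64-fold) and Runx3 (2.36-fold), while Tcf7 had 146 CPM in high-mt barcodes and 171 CPM in the others. Of 13 FOXO targets and quiescence genes 9 were higher and 1 lower (median 1.497, above the 0.75 of all genes), but against the partners the median was 0.65 (7 of 14 higher, 3 lower), below the 0.75 of all genes. At the base level 4 of 8 were higher and 1 lower (median 0.43). Of 13 interferon response genes 6 were higher (5 of 12 at the base level) and 1, Ifi27l2a, was lower, with a median of 0.53. The higher ones included Igtp, a GTPase, and Bst2, the membrane protein tetherin (3.91-fold and 2.75-fold). Ifitm2, scored through high-mt barcodes alone, was 2.79-fold higher. Of 21 MYC targets and ribosome biogenesis genes 3 were higher and 2 lower (median 0.13), and at the base level 2 of 18 were higher and 2 lower (median -0.04). Neither of the 2 scored snoRNA host genes, 1 of them at the base level, passed in either direction (median -0.33). The medians of the transcription factor, interferon and MYC lists turn negative with TMM factors, and that of the FOXO list stays positive (0.49).

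Across all scored genes with a protein sequence, protein class and message length both went with the ratio. Of 435 genes with a hydrophobic start, 89.0% were 2-fold higher and 0.920% lower, with a median log2 ratio of 2.08. Of 715 with a hydrophobic stretch only later in the protein, 69.9% were higher and 1.54% lower (median 1.61). Of 2365 with no such stretch, 26.5% were higher and 9.56% lower (median 0.27). Within this last class the median was -0.64 in the shortest of 4 equal groups of transcripts by length (up to 1514 bases in this class), then 0.23, 0.53 and, in the longest group, 1.07. With ribosomal proteins left out of the class it was still -0.56 in the shortest group and 1.08 in the longest. Within the hydrophobic-start class the length groups had medians of 1.43, 2.12, 2.16 and 2.25, so length made less difference there. The transcripts of the 2-fold lower genes had a median length of 954 bases and those of the 2-fold higher genes 3530.5 bases. All scored genes had a median of 2604 bases, and those at the base level, which hold every lower gene, 1994 bases. Many of the higher genes were scored through high-mt barcodes alone, so the 2 lengths rest on unlike sets of genes. No hydrophobic stretch was found in 93.8% of the lower genes, against 67.3% of all scored genes and 1660 of 2121 at the base level. At the base level the class medians were lower throughout: 1.79 in 157 genes with a hydrophobic start (75.2% 2-fold higher), 0.82 in 304 with a later stretch (44.4%) and -0.21 in 1660 with none (10.4%). There the length groups of the last class had medians of -0.68, -0.09, 0.08 and 0.56, short to long, and those of the hydrophobic-start class 1.35, 1.82, 1.90 and 1.80. Genes of 1 class are not independent of each other, and the differences between classes describe these barcodes.

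**Figure D5:**
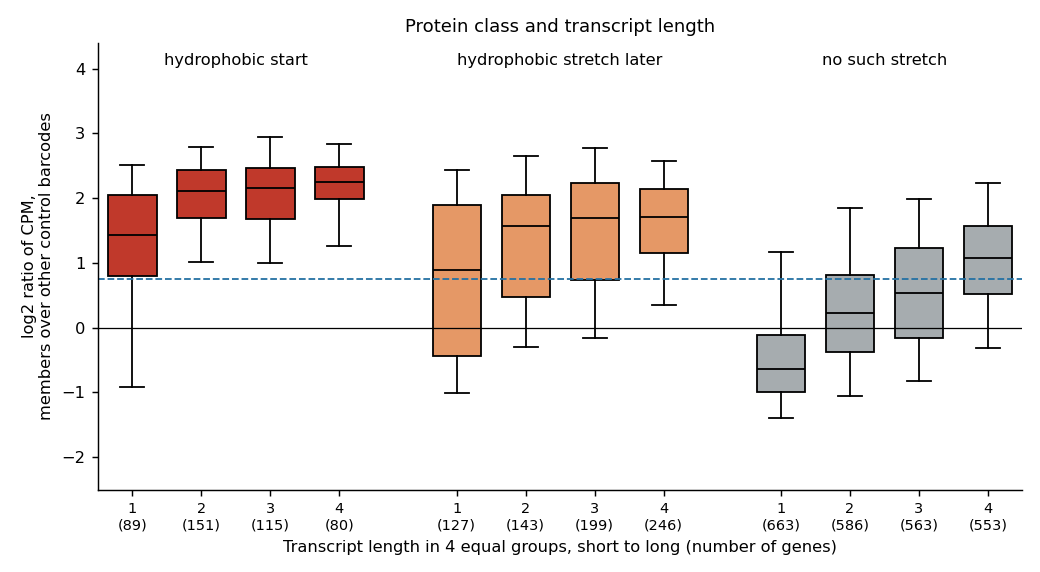
Log2 ratio of CPM, high-mt barcodes over other control barcodes (vertical axis), by protein class and by transcript length in 4 groups, short to long (horizontal axis, number of genes in brackets). Boxes run from the 25th to the 75th percentile with the median as a line, and whiskers from the 5th to the 95th; the dashed line is the median of all scored genes (0.75). Genes with a hydrophobic start lie highest in each length group (medians 1.43 to 2.25) and genes with no stretch climb with length from -0.64 to 1.07.

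The high-mt barcodes varied among themselves along the same lines. The 12 with under 12% mt- UMIs had median shares of 28.2% ribosomal protein, 8.67% hydrophobic-start and 0.719% Malat1 UMIs. The 153 from 12 to under 20% had 17.6, 13.8 and 1.20%, and the 44 at 20% or more had 17.8, 14.7 and 0.776%. Malat1 was thus highest in the middle band: its median share was 1.33% from 12 to under 15% and 0.491% in the 8 barcodes at 25% or more. Over the 209 barcodes, Spearman's rho of the mt- share was 0.42 with the hydrophobic-start share, -0.21 with the ribosomal share, -0.12 with the Malat1 share and 0.01 with total UMIs. These are descriptions, given without a test, of barcodes of 1 library. The ribosomal and hydrophobic-start shares, which have the same denominator, had a rho of -0.47 in high-mt barcodes and -0.58 in the other control barcodes.

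Below the limit the shares went part of the same way, and the ribosomal share not throughout. Control barcodes with 5 to under 10% mt- UMIs (163) had median shares of 5.28% hydrophobic-start, 0.302% Malat1 and 38.2% ribosomal protein UMIs, against 4.01, 0.184 and 40.9% in those with 2 to under 3% (1648). The ribosomal share was 39.4% below 2% mt- UMIs and 41.8% from 3 to under 4%. The 19 from 8 to under 10% stood at 6.49, 0.459 and 32.4%. Over all 3127 other control barcodes, rho of the mt- share was 0.14 with the hydrophobic-start share, and 0.11 with the ribosomal share and 0.08 with the Malat1 share, both opposite in sign to those in high-mt barcodes. The 12 other control barcodes whose ribosomal share lay under the 95th percentile of the high-mt barcodes (28.3%) were 0.384% of the others.

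When the control barcodes were clustered without mt- genes into 4 clusters, 206 of the 209 high-mt barcodes (98.6%) fell in 1 cluster. That cluster also held 817 other control barcodes, which had a median of 3.00% mt- UMIs and 41.4% ribosomal protein UMIs. All 9 CD8 T cell markers were detected in each cluster, so their detection cannot tell the clusters or their cell types apart.

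In the TGR library 2 of 2548 barcodes reached 10% mt- UMIs (0.0785%, 0.00951 to 0.283%). They had 11.7 and 18.6% mt- UMIs, with 34.4 and 15.4% of non-mt- UMIs on ribosomal proteins and 8.14 and 14.4% on hydrophobic-start genes. The second lay under every control barcode below the limit in its ribosomal share. However, the deposited TGR barcodes begin at 2505 UMIs and the control barcodes at 1268. Of control barcodes with at least 2505 UMIs, 22 of 2543 (0.865%, 0.543 to 1.31%) were high-mt, and below that number 187 of 793 (23.6%, 20.7 to 26.7%). Low-UMI barcodes of the TGR library were not analysed here, so the glucose condition and the UMI limit cannot be told apart as sources of the difference between the libraries.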

How the data were processed

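Matrices of UMI counts per gene and barcode were used as the authors deposited them, 1 control and 1 TGR library, with no normalization and 27998 genes. Cell Ranger 2.2, Seurat 3 and mm10 are named in the submitters' processing notes, without saying which step each served or how barcodes were filtered. The members of the high-mt group and all gene lists were chosen with earlier results of these data known. No barcode was removed, and doublets were not called.

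Counts were summed over barcodes of a group and scaled to CPM of non-mt- UMIs. Log2 ratios had 0.5 UMI added per group, scaled by its size, and 95% intervals were exact (Clopper-Pearson, on how a gene's UMIs split between the groups). They cover counting error only. A gene was scored at 50 CPM or more in either group and called at 2-fold (list members at 1.5-fold) where the interval excluded 1. Partners were matched 1 to 1 in total UMIs within 0.05 in log10. Clusters came from scanpy 1.11.5 (Leiden, resolution 0.5, 2000 variable genes, 30 components, 15 neighbours). TMM factors came from edgeR 4.0.16. Gene positions and coding sequences came from GENCODE M21 (GRCm38) by Ensembl identifier, and 27645 of the identifiers matched. Intervals and ratios were tested on simulated data. Named genes are the 12 highest and 12 lowest at 100 CPM or more, without pseudogenes, predicted genes and receptor segments, plus each list's 2 scored genes farthest from a ratio of 1 and its 2 most abundant ones, and mt-Co1, Malat1, Gzmb and Ptprc. Other genes in the text were picked after their values were seen. Alternatives were other totals, limits, partners, filters and scalings. Not every gene chosen this way is reported here.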

Additional observations from a re-analysis of the deposited data

How the results depend on the processing

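No paired analysis was possible because there is 1 library per condition. Against 1553 genes higher and 255 lower, the number higher was 595 with TMM factors, 3090 with no filter on low values, 379 at 200 CPM or more and 436 at 50 CPM or more in the other control barcodes, a limit chosen after seeing the data. The number lower was 421 in CPM of all UMIs, 753 without ribosomal protein genes in the total, 1160 with TMM factors and 150 at 200 CPM or more. All 255 lower genes stayed among the 1160, which their ratios could not leave, since TMM factors lowered every log2 ratio. The median of 837 genes per high-mt barcode was 395 after thinning to 500 UMIs, by construction. The log2 ratio of Malat1, 2.33, was 2.10 in CPM of all UMIs, 1.88 without ribosomal protein genes, 2.19 in barcodes at 20% or more, 1.77 and 1.66 against partners matched in total and in non-mt- UMIs, 2.26 with barcodes weighted equally and 1.45 with TMM factors. With that limit 18 list medians, not 11, lay above that of all genes, and those of the T cell transcription factors (0.081) and heat shock genes (0.13), minus that of all genes, reversed. The FOXO list's median minus that of all genes reversed to -0.11 and -0.25 against partners matched in total and in non-mt- UMIs. The match in non-mt- UMIs kept 168 of the 209 high-mt barcodes. Their median was 1388 non-mt- UMIs, against 1290 in all 209. In barcodes at 20% or more, the log2 ratios of Ikzf2 (-0.025), Prim1 (-0.26) and Zfp36l1 (-1.33) reversed, and with TMM factors those of Zfp36l1 (-0.15), Phgdh (-0.084) and Junb (-0.12). Apart from the scaling and the genes scored, the cause was not tested. Of the values of named genes under the alternatives, 1238 kept their direction and side of the threshold, 58 were weaker, 48 stronger and 6 reversed. The 1238 include 135 from a limit to clusters with CD8 T cell markers. That limit removed no barcode, so these 135 could not differ. Depth limits genes under about 50 CPM, since the high-mt barcodes held 308799 non-mt- UMIs in all.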
